A study of Mus musculus with 6 samples.

Results

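The genes of late G2 phase and mitosis were examined in B16-F1 cells in which macroH2A1 or macroH2A2 had been targeted by RNA interference. The group was a list of 34 genes for cyclins, mitotic kinases, checkpoint and kinetochore proteins, spindle motors and cytokinesis factors, chosen by name. Each gene was represented by its brightest probe set that carried a single gene symbol. Of the 34 genes 33 had one, among 18193 genes with such a probe set on the array, and all 33 passed the filter on dim probe sets, which used the mean over all arrays. Ccnb1, which encodes cyclin B1, had no probe set with a single symbol and was not measured here.

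B16-F1 is a melanoma line of the C57BL/6J mouse strain, and each of its sublines held a stable lentivirus that expresses a short hairpin RNA (shRNA). The groups were macroH2A1 shRNA, macroH2A2 shRNA and Control shRNA, whose hairpin is directed against GFP, so that all 3 lines shared the lentiviral integration and the culture in serum. Each line had 2 samples described as biological replicates, numbered 1 and 2, which gave 6 one-colour arrays, few enough to leave wide intervals on single genes. The labels do not say whether a line is 1 clone or a pool, and they name no agent or synchronisation of the cell cycle. Because the RNA came from whole cultures, fewer cells in G2 or mitosis and less of a transcript in each such cell cannot be told apart.

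The labels were checked first. Macroh2a1, the target gene, had 444 and 319 signal units in macroH2A1 shRNA cells, 1271 and 1170.5 in macroH2A2 shRNA cells, against 1213 and 1262 in Control shRNA cells. Its log2 difference from Control shRNA was -1.67 (SE 0.17), and the limma adjusted p was 0.123 without a term for the replicate number and 0.00120 with it. Macroh2a2 had 3.5 and 2.0 signal units in macroH2A1 shRNA cells, 11.9 and 8.3 in macroH2A2 shRNA cells, against 6.1 and 7.5 in Control shRNA cells, with a mean of 6.55 that was below the filter on the mean signal, so the knockdown in the macroH2A2 shRNA line could not be checked on these arrays. All 7 melanocyte markers passed the filter, with summed signals of 35749 to 41995 in macroH2A1 shRNA cells, 32714 to 37739 in macroH2A2 shRNA cells and 32809 to 33600 in Control shRNA cells. The leukocyte, fibroblast, keratinocyte and endothelial lists each summed to at most 166.2 signal units on any array, with the leukocyte marker Ptprc at 0.3 to 3.3 and the endothelial marker Pecam1 at 0.7 to 10.5. The 2% trimmed mean signal was 150.0 on every array and the median lay between 15.1 and 24.6.

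Passage through G2 into mitosis is driven by Cdk1 bound to cyclins A and B. Many genes of this phase are kept off in G1 and switched on together late in the cycle by a repressor and activator complex built on the DREAM and MuvB proteins, with B-Myb and FoxM1, which reads a promoter element called the cell cycle genes homology region (CHR), often with nearby CCAAT boxes bound by NF-Y. In a growing tumour line their transcripts are abundant, and their level in a whole culture is widely used as a reading of proliferation. MacroH2A proteins are histone H2A variants with a large macro domain and are found mainly on silent chromatin.

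The promoters are shown because most of them share an element that played no part in choosing the genes. RefSeq promoters on build GRCm38.p6, each from 250 bases before to 50 bases after a gene start, were found for 28 of the 34 genes. CHR was searched as TTTGAA and TTCGAA and the CCAAT box as CCAAT, both on either strand, where TTTGAA reads TTCAAA and CCAAT reads ATTGG, and words of the 2 elements can share a letter at their ends. Below are 5 promoters, from 5′ to 3′ on the strand of the gene, of genes whose levels are described in the following paragraphs: Cdk1 at chr10:69352863-69353162 (minus strand), Plk1 at chr7:122159185-122159484 (plus), Cdc20 at chr4:118437294-118437593 (minus), Prc1 at chr7:80294201-80294500 (plus) and Anln at chr9:22389157-22389456 (minus). Capitals mark the matched words.
Cdk1: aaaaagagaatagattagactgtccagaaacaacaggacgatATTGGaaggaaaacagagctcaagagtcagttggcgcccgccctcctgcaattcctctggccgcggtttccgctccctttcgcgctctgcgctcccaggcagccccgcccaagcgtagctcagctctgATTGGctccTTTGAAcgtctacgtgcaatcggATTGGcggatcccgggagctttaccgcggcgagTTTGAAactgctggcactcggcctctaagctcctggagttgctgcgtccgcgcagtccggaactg
Plk1: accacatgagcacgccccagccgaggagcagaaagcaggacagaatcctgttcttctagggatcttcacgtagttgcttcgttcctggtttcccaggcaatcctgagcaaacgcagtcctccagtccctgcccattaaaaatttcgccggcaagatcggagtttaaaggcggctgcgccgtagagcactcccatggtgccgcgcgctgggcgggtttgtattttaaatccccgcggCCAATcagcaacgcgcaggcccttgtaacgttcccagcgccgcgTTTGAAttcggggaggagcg
Cdc20: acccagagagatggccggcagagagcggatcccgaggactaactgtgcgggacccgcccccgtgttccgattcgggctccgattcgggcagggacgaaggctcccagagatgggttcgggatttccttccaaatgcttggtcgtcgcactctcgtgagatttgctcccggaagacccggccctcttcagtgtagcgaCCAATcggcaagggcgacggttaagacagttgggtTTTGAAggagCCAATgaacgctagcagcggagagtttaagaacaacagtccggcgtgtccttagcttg
Prc1: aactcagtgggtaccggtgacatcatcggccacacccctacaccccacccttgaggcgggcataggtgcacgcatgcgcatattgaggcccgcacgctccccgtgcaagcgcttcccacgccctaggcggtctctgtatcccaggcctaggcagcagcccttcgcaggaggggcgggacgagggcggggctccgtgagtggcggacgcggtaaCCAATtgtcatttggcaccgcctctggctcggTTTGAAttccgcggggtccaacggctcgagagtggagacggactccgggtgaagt
Anln: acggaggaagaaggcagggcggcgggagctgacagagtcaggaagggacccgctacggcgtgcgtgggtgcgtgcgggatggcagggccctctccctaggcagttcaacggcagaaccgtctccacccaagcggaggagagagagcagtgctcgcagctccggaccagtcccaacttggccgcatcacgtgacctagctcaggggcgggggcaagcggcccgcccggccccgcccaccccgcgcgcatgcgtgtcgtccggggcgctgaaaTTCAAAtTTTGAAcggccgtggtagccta

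Of the 28 promoters 21 (75%) held a CHR word, against 19.4% of all 27025 promoters of the same length, taken as 1 per gene symbol. A CCAAT word stood in 71.4% of the 28 and in 37.9% of all promoters, and both words stood together in 64.3% and 7.7%. From 100 bases before the start to 50 bases after it, the 28 promoters held a CHR word in 71.4% of cases and all promoters in 8.68%. Among 120 promoters of other G2/M and mitosis genes 45% held a CHR word, and among 28 promoters of G1/S and DNA replication genes 17.9% did, while CCAAT words stood in 55.8% and 60.7% of these. In Cdk1, counted in bases from the start, CHR words began at -71 and -15 and the CCAAT words nearest to them at -80 and -48. In Plk1 and Anln the CHR words lay downstream of the start, and Anln held no CCAAT word. No word of either kind was found in the windows of Melk, Mad2l1, Birc5, Nuf2 and Nusap1. A match is a run of letters and not a measured binding site, and no binding data were used here.

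**Figure D1:**
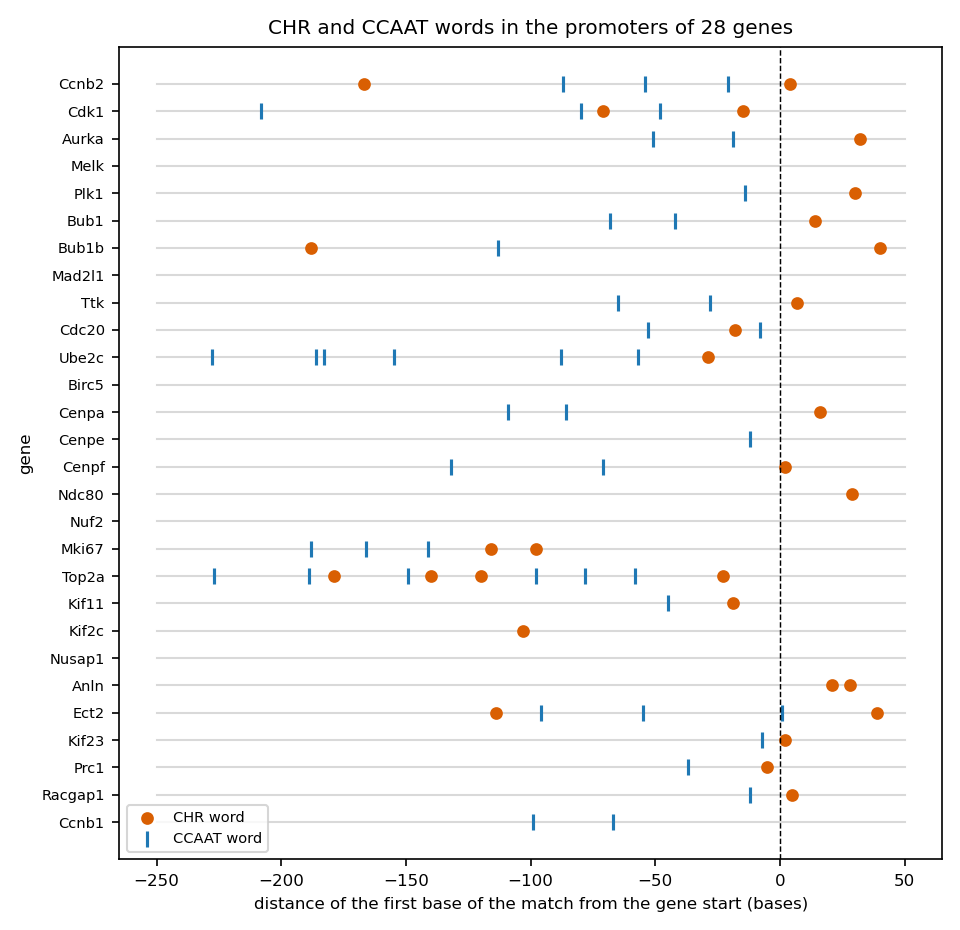
Each line is the promoter of 1 of 28 G2/M and mitosis genes, and the horizontal axis is the distance in bases from the gene start (dashed) at which a CHR word (circles) or a CCAAT word (bars) begins. Most CHR words lie close to the start, and 5 promoters hold neither word.

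The first question was whether the level of these genes differed between macroH2A1 shRNA and Control shRNA cells. Signals were compared as log2(signal + 16) with limma over all 27025 tested probe sets, and a call needed a Benjamini-Hochberg adjusted p under 0.05. None of the 33 genes was called, while 0% of all tested probe sets were called. An unadjusted limma p under 0.05 was found for 0 of the 33 genes and for 4.4% of all tested probe sets. With the replicate number as a term in the fit 0 were called again, beside 0.192% of all tested probe sets, and 1 gene, Racgap1, had an unadjusted p under 0.05, as did 8.84% of all tested probe sets. Of the 33 genes 11 were higher and 22 lower, with a median log2 difference of -0.05 against -0.03 over all tested probe sets. When each array was centred on its median instead, 20 were higher and the median was 0.02, against 0.04 over all tested probe sets. After quantile normalization 8 were higher and the median was -0.06, against 0.0033 over all tested probe sets. The median of the 33 genes was thus slightly below that of all probe sets under each scaling, while the count of higher genes depended on the scaling. The 95% interval of the difference lay within a 1.5-fold change either way for 24 of the 33 genes and within a 2-fold change for 32, Cenpe being the exception.

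Among the cyclins and their kinase, Cdk1, the kinase that starts mitosis, had 1658 and 1917 signal units in macroH2A1 shRNA cells, 1917 and 1474.5 in macroH2A2 shRNA cells, against 1665 and 1762 in Control shRNA cells. Ccna2, which encodes the cyclin A2 of S and G2 phase, had 1156 and 1200.5 signal units in macroH2A1 shRNA cells, 1563 and 1288 in macroH2A2 shRNA cells, against 1154 and 1194 in Control shRNA cells. Replicate 1 of macroH2A2 shRNA gave the highest value of Ccna2 and, level with replicate 2 of macroH2A1 shRNA, of Cdk1, while the macroH2A1 shRNA and Control shRNA arrays overlapped for both. The log2 difference of Cdk1 from Control shRNA was 0.06 (95% interval -0.30 to 0.41) in macroH2A1 shRNA cells and -0.03 (95% interval -0.38 to 0.33) in macroH2A2 shRNA cells. For Ccna2 the same differences were 0.01 (95% interval -0.30 to 0.31) and 0.27 (95% interval -0.04 to 0.58), and both macroH2A2 shRNA arrays lay above all other arrays. Ccnb2, the cyclin B2 gene, and Cdc25c, which encodes a phosphatase that activates Cdk1, differed from Control shRNA by between -0.13 and 0.05 in either line. Foxm1, which encodes a transcription factor of G2/M genes, had 131 and 138 signal units in macroH2A1 shRNA cells, 199.9 and 143 in macroH2A2 shRNA cells, against 172 and 139 in Control shRNA cells. Both macroH2A1 shRNA arrays were just below the lower Control shRNA array. This gap came from replicate set 1, where the difference was -0.36, while it was -0.0047 in set 2. Other tested probe sets of Foxm1 differed by -0.02 and 0.07 in macroH2A1 shRNA cells, and their values overlapped with those of Control shRNA.

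For the mitotic kinases, Plk1, which acts at centrosomes, kinetochores and the midbody, had 417 and 424 signal units in macroH2A1 shRNA cells, 559.5 and 364 in macroH2A2 shRNA cells, against 477 and 396 in Control shRNA cells. Aurka, the Aurora A kinase of centrosomes and spindle poles, had 665 and 794 signal units in macroH2A1 shRNA cells, 940.5 and 700 in macroH2A2 shRNA cells, against 749.7 and 739 in Control shRNA cells. Aurkb, the Aurora B kinase of the chromosomal passenger complex, had 605 and 688.5 signal units in macroH2A1 shRNA cells, 763 and 623 in macroH2A2 shRNA cells, against 728 and 795 in Control shRNA cells. The values of Plk1 and Aurka overlapped between all 3 lines, with the highest value again on replicate 1 of macroH2A2 shRNA, whereas both macroH2A1 shRNA values of Aurkb lay below both Control shRNA values. The difference of Aurkb was -0.23 (95% interval -0.59 to 0.12) in macroH2A1 shRNA cells and -0.14 (95% interval -0.49 to 0.22) in macroH2A2 shRNA cells. Melk, a kinase gene of proliferating cells, differed by 0.07 and -0.01 in these 2 comparisons.

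In the spindle checkpoint, which holds anaphase until chromosomes are attached, Mad2l1, encoding Mad2, had 2323 and 2841 signal units in macroH2A1 shRNA cells, 2750.2 and 2553 in macroH2A2 shRNA cells, against 2119 and 2475 in Control shRNA cells. Bub1b, encoding the checkpoint protein BubR1, had 344 and 446 signal units in macroH2A1 shRNA cells, 469 and 345 in macroH2A2 shRNA cells, against 432 and 444 in Control shRNA cells. Mad2l1 was lowest on replicate 1 of Control shRNA, and both values of macroH2A2 shRNA exceeded both of Control shRNA, while the lines overlapped for Bub1b. Mad2l1 differed by 0.16 (95% interval -0.16 to 0.49) in macroH2A1 shRNA cells and by 0.21 (95% interval -0.11 to 0.53) in macroH2A2 shRNA cells. Ttk, the Mps1 kinase gene, differed by -0.04 and -0.02. Of the anaphase-promoting complex, the ubiquitin ligase that ends metaphase, the activator gene Cdc20 had 2036 and 1793 signal units in macroH2A1 shRNA cells, 2397 and 1722 in macroH2A2 shRNA cells, against 1959 and 1668 in Control shRNA cells. The ubiquitin-conjugating enzyme gene Ube2c had 1859 and 2263 signal units in macroH2A1 shRNA cells, 2199.8 and 1841 in macroH2A2 shRNA cells, against 1988 and 2179.8 in Control shRNA cells. Both genes overlapped between all 3 lines, and neither difference of Ube2c from Control shRNA exceeded 0.05 in size.

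At centromeres and kinetochores, Cenpa, encoding the centromeric histone H3 variant, had 1427 and 1188 signal units in macroH2A1 shRNA cells, 1587 and 1133 in macroH2A2 shRNA cells, against 1351 and 1246 in Control shRNA cells. Birc5, encoding survivin of the chromosomal passenger complex, had 1904 and 1995 signal units in macroH2A1 shRNA cells, 2357 and 1860.1 in macroH2A2 shRNA cells, against 1838 and 2035 in Control shRNA cells. Ndc80, encoding a subunit of the complex that couples kinetochores to microtubules, had 240 and 235 signal units in macroH2A1 shRNA cells, 275 and 247 in macroH2A2 shRNA cells, against 201 and 231 in Control shRNA cells. Replicate 1 of macroH2A2 shRNA was the highest array for all 3 genes, and for Ndc80 all 4 macroH2A shRNA values exceeded both Control shRNA values. The difference of Ndc80 was 0.13 (95% interval -0.24 to 0.50) in macroH2A1 shRNA cells and 0.26 (95% interval -0.12 to 0.63) in macroH2A2 shRNA cells. Nuf2, another subunit of that complex, differed by -0.05 and 0.08. Of the genes for chromosome structure, Top2a, encoding the DNA topoisomerase that decatenates sister chromatids, had 2034 and 2316 signal units in macroH2A1 shRNA cells, 2237 and 1924 in macroH2A2 shRNA cells, against 2012 and 2148 in Control shRNA cells. Mki67, encoding the proliferation marker Ki-67, had 1846 and 1632 signal units in macroH2A1 shRNA cells, 2223 and 1619.9 in macroH2A2 shRNA cells, against 2051 and 1713 in Control shRNA cells. Both overlapped between the lines, and their differences from Control shRNA ranged from -0.11 to 0.06.

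Among the spindle genes, Kif11, encoding the motor that separates spindle poles, had 594 and 502 signal units in macroH2A1 shRNA cells, 676 and 499 in macroH2A2 shRNA cells, against 566 and 607 in Control shRNA cells. Nusap1, encoding a spindle microtubule protein, had 819 and 873 signal units in macroH2A1 shRNA cells, 1015.5 and 926 in macroH2A2 shRNA cells, against 1048 and 931.5 in Control shRNA cells. The lines overlapped for Kif11, and both macroH2A1 shRNA values of Nusap1 were below the other 4 arrays. The difference of Nusap1 was -0.22 (95% interval -0.53 to 0.08) in macroH2A1 shRNA cells. By their brightest probe sets all 4 spindle genes were lower than Control shRNA in both lines. Their log2 differences were -0.22 to -0.01, and none was called. Of all 27025 tested probe sets 15027 were lower in macroH2A1 shRNA cells and 15059 in macroH2A2 shRNA cells. In macroH2A1 shRNA cells other probe sets ran both ways, for Tpx2 at 0.19, 0.10 and 0.04 and for Kif2c at -0.22, -0.10 and -0.13. Of 23 further genes of mitotic kinesins and the spindle 12 were higher in macroH2A1 shRNA cells and 11 in macroH2A2 shRNA cells. The spindle factor gene Tpx2 differed by -0.06 and -0.10, and Kif2c, encoding a microtubule-depolymerising kinesin, by -0.03 and -0.10.

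The smallest p-values between macroH2A1 shRNA and Control shRNA belonged to cytokinesis genes and Nusap1. Racgap1, which encodes a subunit of centralspindlin, had 515 and 439 signal units in macroH2A1 shRNA cells, 574 and 472.5 in macroH2A2 shRNA cells, against 619 and 597 in Control shRNA cells. Anln, which encodes the contractile ring scaffold anillin, had 1420.1 and 1621 signal units in macroH2A1 shRNA cells, 2146 and 1716 in macroH2A2 shRNA cells, against 1822.5 and 1891 in Control shRNA cells. Prc1, encoding the protein that bundles microtubules of the central spindle, had 516 and 567 signal units in macroH2A1 shRNA cells, 774 and 619 in macroH2A2 shRNA cells, against 692 and 617 in Control shRNA cells. For these 3 genes both macroH2A1 shRNA arrays lay below both Control shRNA arrays. Racgap1 differed by -0.34 (95% interval -0.71 to 0.02), with a limma p of 0.061 (0.029 with the replicate number in the fit, adjusted p = 0.481). Anln differed by -0.29 (95% interval -0.62 to 0.04) and Prc1 by -0.27 (95% interval -0.63 to 0.10). A second probe set of Prc1 was lower as well (-0.45), whereas second probe sets of Racgap1 and Anln ran the other way, at 0.09 and 0.40. Of the 6 cytokinesis genes 5 were lower in macroH2A1 shRNA cells, with a median of -0.17, and 2 were lower in macroH2A2 shRNA cells, with a median of 0.04. Kif20a, a kinesin gene of the central spindle, was the one that was higher, by 0.12. Kif23, the kinesin partner in centralspindlin, differed by -0.06 and Ect2, the exchange factor that it recruits, by -0.08. The count of 5 of 6 stands beside 15027 of all 27025 tested probe sets that were lower in macroH2A1 shRNA cells. Among 7 further cytokinesis genes 4 were lower and 3 higher in these cells, with a median of -0.08.

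Over the 33 genes, both macroH2A1 shRNA values were below both Control shRNA values for 6 (Racgap1, Anln, Prc1, Nusap1, Aurkb and Foxm1) and above both for 1 (Ndc80). Of all tested probe sets 14.9% were below in the same way and 13% above, so the count of 6 was near the background. Within replicate sets, 13 genes were lower in both sets, as were 31.6% of all tested probe sets, and 6 were higher in both, as were 24.4%. The share lower in both sets, 13 of 33, was near the background. Of 20 genes with several tested probe sets, all probe sets had the same sign for 9.

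**Figure D2:**
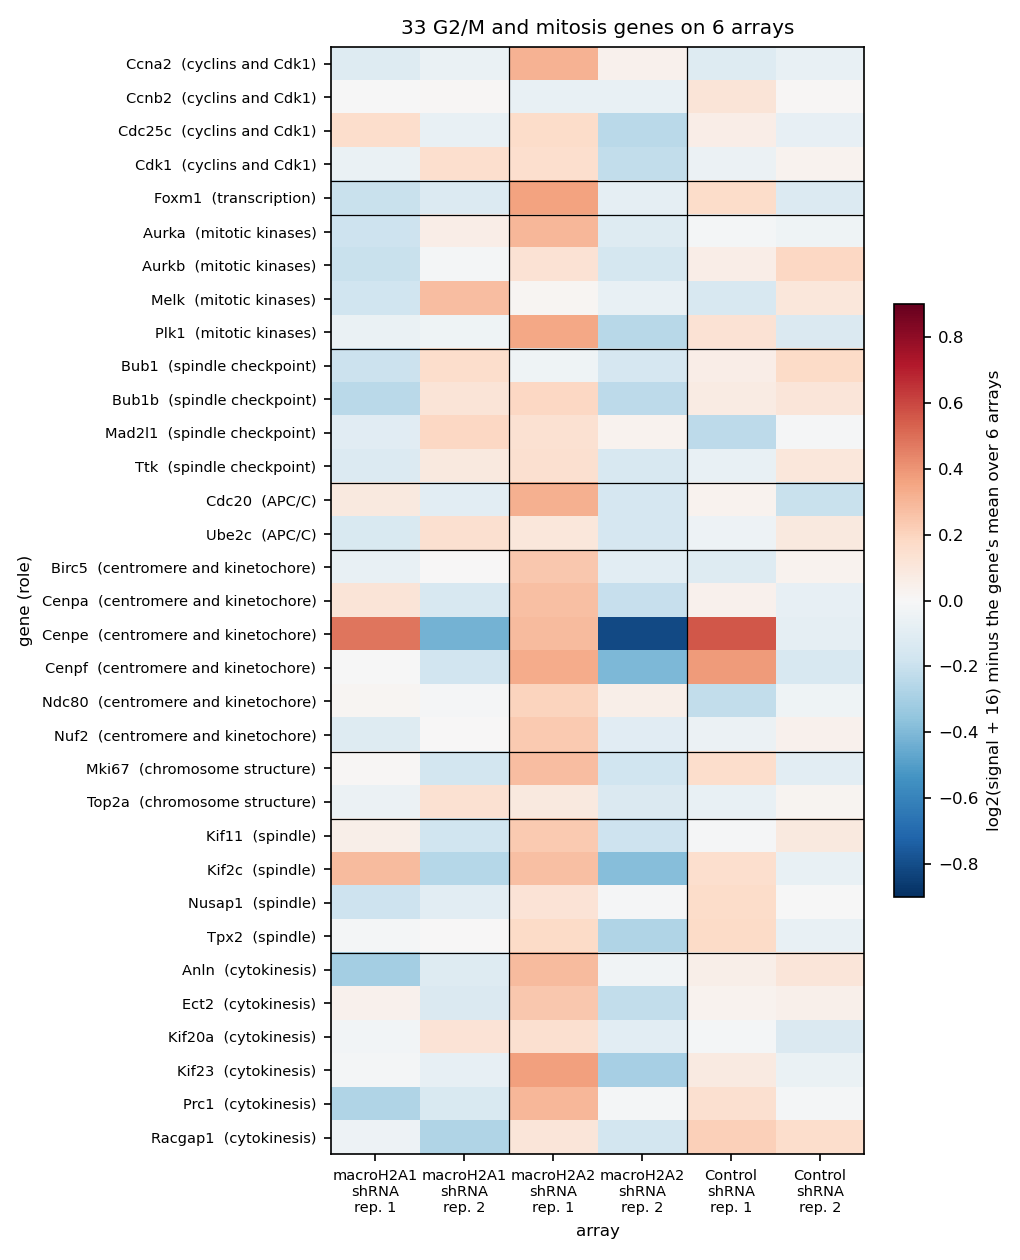
Each row is 1 of 33 G2/M and mitosis genes, grouped by role, each column is 1 array, and colour is the log2(signal + 16) value minus the mean of the gene over the 6 arrays. The column of macroH2A2 shRNA replicate 1 is above the gene mean for 31 of 33 genes, and the column of macroH2A2 shRNA replicate 2 for 3.

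The second question was the same comparison for macroH2A2 shRNA. None of the 33 genes was called against Control shRNA by limma, with or without the replicate number in the fit, beside 0% and 0.144% of all tested probe sets. At an unadjusted p under 0.05 the counts were 0 without and 1 with that term, beside 3.98% and 8.98% of all tested probe sets. Of the 33 genes 15 were higher and 18 lower, with a median log2 difference of -0.01 against -0.03 over all tested probe sets, and with arrays centred on their medians 24 were higher, with a median of 0.07 against 0.04. The 95% intervals lay within a 1.5-fold change for 28 of the 33 genes and within a 2-fold change for 32. The smallest p-values were those of Ccna2, Ndc80 and Mad2l1, given above, and of Bub1, which encodes a checkpoint kinase and was lower. Bub1 had 919.7 and 1173 signal units in macroH2A1 shRNA cells, 1023 and 945 in macroH2A2 shRNA cells, against 1095 and 1185 in Control shRNA cells. Both macroH2A2 shRNA values lay below both Control shRNA values, and the difference was -0.21 (95% interval -0.56 to 0.14). Bub1 was named for its small p, so that gap adds no support.

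Cenpe, encoding the kinesin that carries chromosomes to the metaphase plate, had 480.1 and 249 signal units in macroH2A1 shRNA cells, 418 and 186 in macroH2A2 shRNA cells, against 508 and 319.9 in Control shRNA cells. In each line replicate 2 was far below replicate 1, and the lines overlapped. The difference between macroH2A2 shRNA and Control shRNA was -0.50 (95% interval -1.47 to 0.46), and with the replicate number in the fit its SE was 0.16 and its limma p 0.00884, which did not pass adjustment over all probe sets (adjusted p = 0.323). A second probe set of Cenpe differed by -0.22.

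The averages of macroH2A2 shRNA combine replicate sets that point in opposite directions. In replicate set 1, 27 of 33 genes were higher in macroH2A2 shRNA cells than in Control shRNA cells, with a median of 0.16, while 40.5% of all tested probe sets were higher and their median was -0.08. In replicate set 2, 26 of 33 were lower, with a median of -0.16, while 48.2% of all tested probe sets were lower and their median was 0.01. In total 20 of the 33 genes were higher in set 1 and lower in set 2, against 18.6% of all tested probe sets, and 0 showed the reverse order. Another 7 were higher in both sets (background 21.8%) and 6 lower in both (background 29.4%). With arrays centred on their medians 32 were higher in set 1 and 30 lower in set 2, where the medians over all tested probe sets were 0.12 and -0.04. After quantile normalization the counts were 25 and 27, with medians over all tested probe sets of 0.02 and -0.0039. Cdk1 is an example, at 0.20 in set 1 and -0.25 in set 2, and Kif23 another, at 0.28 and -0.23. Bub1b stood at 0.11 and -0.35, and Birc5 at 0.36 and -0.13. Without the macroH2A2 shRNA replicate 1 array the median over the 33 genes was -0.18, and without the replicate 2 array it was 0.21. The pattern was not particular to G2/M genes: of 33 measured genes of G1/S and DNA replication 31 were higher in set 1 and lower in set 2.

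**Figure D3:**
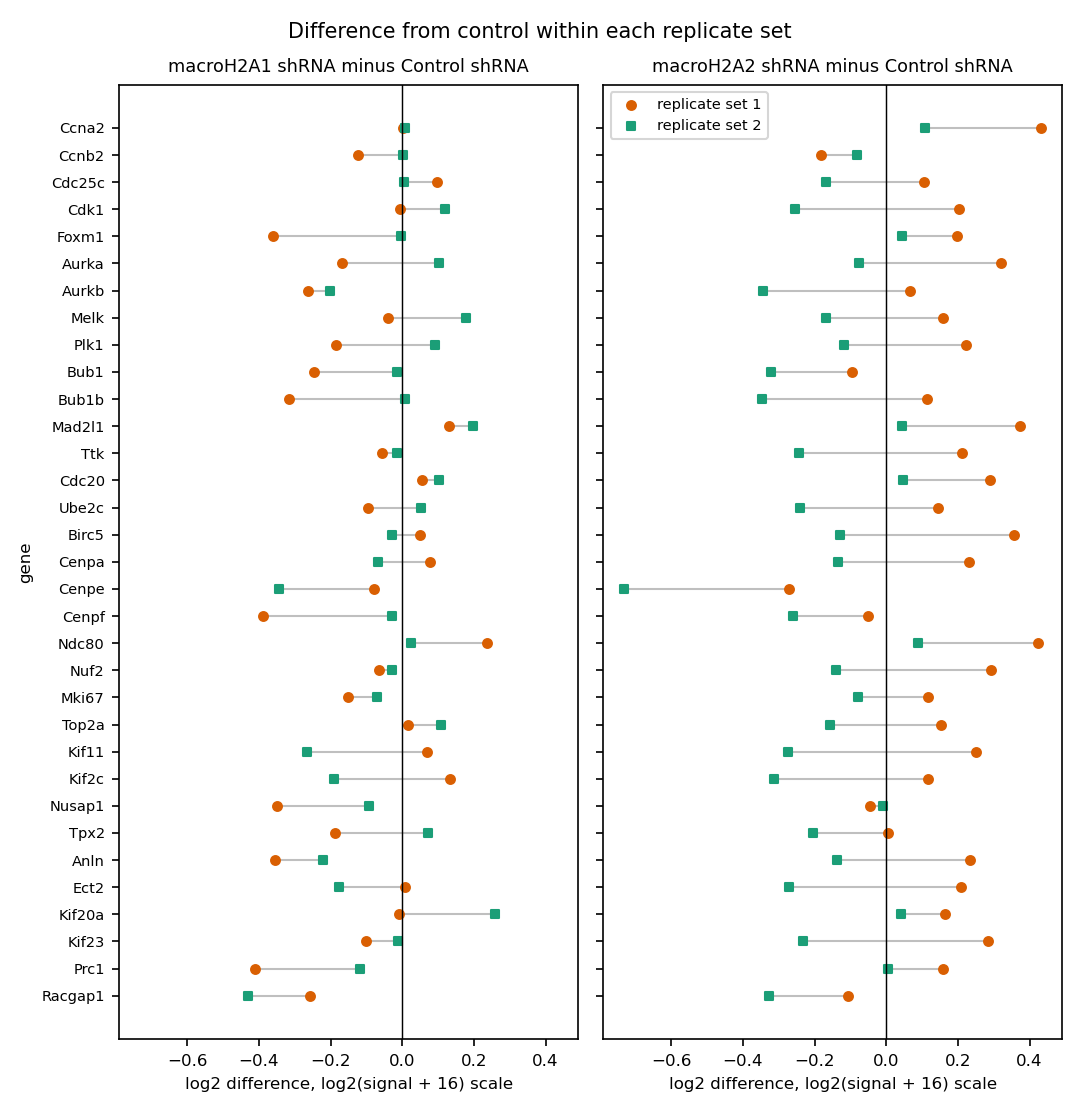
For each gene the log2 difference from Control shRNA is shown in replicate set 1 (circles) and in replicate set 2 (squares), for macroH2A1 shRNA in the left panel and macroH2A2 shRNA in the right panel. In the right panel 27 of 33 circles lie above 0 and 26 of 33 squares below 0, whereas in the left panel 11 circles lie above 0 and 18 squares below.

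The 2 knockdown lines were then set against each other, a comparison that shares its arrays with both preceding ones. With macroH2A2 shRNA minus macroH2A1 shRNA, limma called 0 of the 33 genes without and 0 with the replicate number in the fit, beside 0% and 0.0037% of all tested probe sets. Anln had an unadjusted limma p of 0.047, and 2.73% of all tested probe sets were under 0.05. With that term the unadjusted limma p was 0.029 for Anln (adjusted p = 0.726) and 0.037 for Prc1 (adjusted p = 0.760), while 6.33% of all tested probe sets were under 0.05. Their signals are given above, and both macroH2A2 shRNA values exceeded both macroH2A1 shRNA values. Both genes were named for their small p, so that gap adds no support. The difference of Anln was 0.34 (95% interval 0.01 to 0.67) and that of Prc1 0.35 (95% interval -0.02 to 0.71), while Ccna2 differed by 0.26 (95% interval -0.04 to 0.57) and Nusap1 by 0.19 (95% interval -0.11 to 0.50). The second probe set of Anln differed by -0.37, opposite in sign, and those of Prc1 and Ccna2 by 0.42 and 0.49.

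Of the 33 genes 22 were higher in macroH2A2 shRNA cells, with a median of 0.05, against 48.9% and a median of -0.005 over all tested probe sets. In replicate set 1, 30 were higher, with a median of 0.24, against 46.5% and a median of -0.02 over all tested probe sets. In set 2, 26 were lower, with a median of -0.14, against 49% and a median of 0.0055. The count higher in set 1 and lower in set 2 was 23, against 22.1% of all tested probe sets. Higher in both sets were 7 (background 24.3%) and lower in both 3 (background 26.8%). The 95% intervals lay within a 1.5-fold change for 25 genes. Of the 33 measured genes of G1/S and DNA replication 28 were higher in set 1 and lower in set 2.

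**Figure D4:**
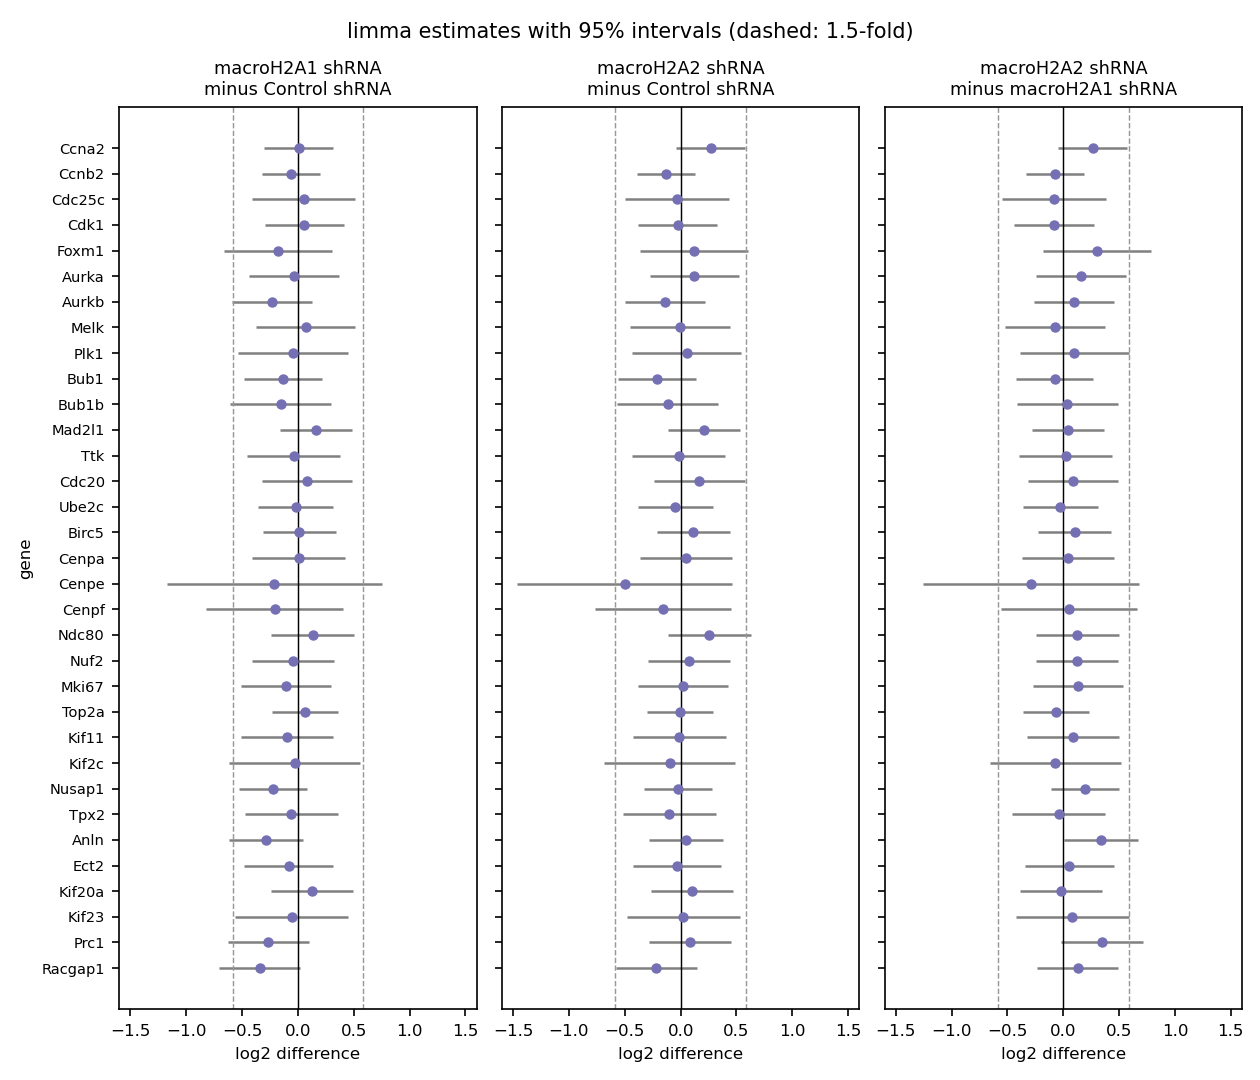
Points are limma log2 differences of 33 G2/M and mitosis genes and bars their 95% intervals, for macroH2A1 shRNA minus Control shRNA, macroH2A2 shRNA minus Control shRNA and macroH2A2 shRNA minus macroH2A1 shRNA, with dashed lines at a 1.5-fold change. All intervals but that of Anln in the last panel include 0, and that of Cenpe is the widest in each panel.

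Because the replicate sets differed, replicate 1 was compared with replicate 2 in each line. In macroH2A2 shRNA cells all 33 genes had more signal in replicate 1 than in replicate 2, by 0.0046 to 1.10 on the log2 scale with a median of 0.34, whereas 53.7% of all tested probe sets were higher, with a median of 0.03. In macroH2A1 shRNA cells 12 of 33 were higher on replicate 1 (background 56.2%), with a median of -0.07. In Control shRNA cells 17 were higher (background 62.7%), with a median of 0.02. The replicate 1 array of macroH2A2 shRNA was the highest of the 6 arrays for 21 genes and its replicate 2 array the lowest for 16. Of all 27025 tested probe sets the first was highest for 3985 and the second lowest for 4813. With arrays centred on their medians the gene counts were 16 and 5, beside 2714 and 2913 of all tested probe sets. The array most often lowest was then replicate 1 of Control shRNA, for 17 genes and for 10860 of all tested probe sets. After quantile normalization the gene counts were 20 and 18, beside 4364 and 4313 of all tested probe sets. With centred arrays the counts higher on replicate 1 were 28 of 33 in macroH2A2 shRNA cells (background 37.1%), 6 in macroH2A1 shRNA cells (32.9%) and 2 in Control shRNA cells (27.2%). After quantile normalization they were 33 (background 49%), 15 (47.2%) and 22 (47.1%). Each line has a single pair of arrays, so these counts describe those arrays and the difference between lines was not tested.

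The 33 measured genes of G1/S and DNA replication were split in the same way in the macroH2A2 shRNA line, where 29 were higher on replicate 1, with a median of 0.33. In the other lines most of them were lower on replicate 1. There 6 were higher in macroH2A1 shRNA cells, with a median of -0.29, and 3 in Control shRNA cells, with a median of -0.31. Whether the cultures differed in growth when the RNA was taken was not tested.

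**Figure D5:**
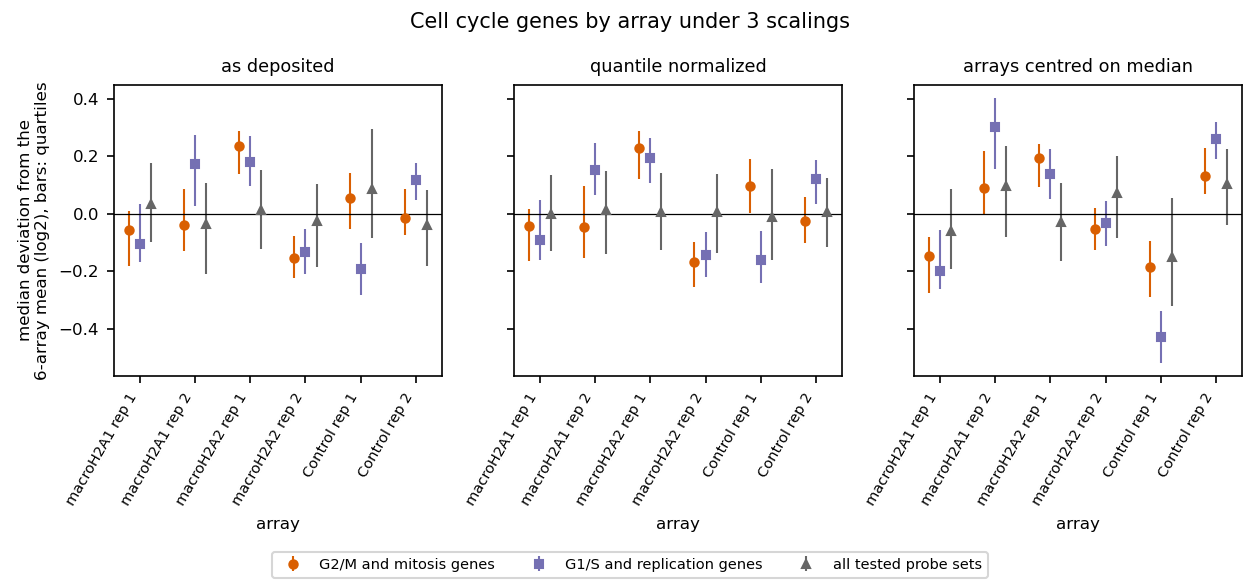
The vertical axis is the median deviation of a gene list from its own mean over 6 arrays on the log2 scale, with bars from the lower to the upper quartile, for 33 G2/M and mitosis genes (circles), 33 G1/S and replication genes (squares) and all tested probe sets (triangles), under 3 scalings. As deposited, the G2/M genes stand at 0.24 on macroH2A2 shRNA replicate 1 and at -0.15 on macroH2A2 shRNA replicate 2, and between -0.06 and 0.05 on the other 4 arrays.

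Across the 3 lines together, with the line as a term, limma called 3 of the 33 genes between replicate 1 and replicate 2, and 9.85% of all tested probe sets, so the share of genes called was near the background. All 3 were higher in replicate 1. Cenpe, whose values are given above, differed by 0.88 (95% interval 0.60 to 1.17) with a limma adjusted p of 0.00303. Cenpf, encoding a large kinetochore protein, had 618 and 549 signal units in macroH2A1 shRNA cells, 785 and 464 in macroH2A2 shRNA cells, against 814 and 559.9 in Control shRNA cells. It differed by 0.48 (95% interval 0.20 to 0.76) with a limma adjusted p of 0.039. Kif2c had 751 and 511 signal units in macroH2A1 shRNA cells, 743 and 468 in macroH2A2 shRNA cells, against 684 and 585 in Control shRNA cells. It differed by 0.47 (95% interval 0.21 to 0.73) with a limma adjusted p of 0.031. In each line the replicate 1 value of these 3 genes was above the replicate 2 value. The next smallest p was that of Mki67, which differed by 0.30 (95% interval 0.09 to 0.50) with a limma adjusted p of 0.075. Of the 33 genes 9 were higher on replicate 1 in all 3 lines (background 29.1%) and 0 lower in all 3 (background 15.1%). Other probe sets of Cenpf differed by 1.11 and 0.06 and those of Kif2c by 0.09, 0.18 and 0.47. The second probe set of Cenpe had 270 and 247 signal units in macroH2A1 shRNA cells and 289 and 227 in macroH2A2 shRNA cells. In Control shRNA cells it had 337 and 270. With the mean over the probe sets of a gene Cenpe differed by 0.57 and was not called (limma adjusted p of 0.0638). Without either Control shRNA array Cenpf was no longer called (limma adjusted p of 0.155 without replicate 1 and 0.15 without replicate 2), nor without either macroH2A2 shRNA array (0.0755 and 0.0710). Kif2c was no longer called without either macroH2A1 shRNA array (limma adjusted p of 0.201 and 0.195). Both calls were also lost when arrays were centred on their medians, where the median over the 33 genes was -0.18 in place of 0.07.

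Beyond the 33 genes, 138 other genes of mitotic entry, its transcription factors, the checkpoint, kinetochores, the anaphase-promoting complex, condensin and cohesin, the spindle and cytokinesis were tested. In each of the 3 comparisons of lines limma called 0 of them, with and without the replicate number in the fit. At an unadjusted p under 0.05, without that term, 1 was higher and 0 lower for macroH2A1 shRNA minus Control shRNA, 4 higher and 1 lower for macroH2A2 shRNA minus Control shRNA, and 0 either way for macroH2A2 shRNA minus macroH2A1 shRNA, where 4.4%, 3.98% and 2.73% of all tested probe sets were under 0.05. With it the counts were 2 higher and 2 lower, 7 higher and 2 lower, and 2 higher and 1 lower, beside 8.84%, 8.98% and 6.33%. These percentages pool both directions, and with higher and lower genes pooled none of the counts was above its background share. By direction, the higher genes for macroH2A2 shRNA minus Control shRNA were above theirs. They were 4 of 138 without the term and 7 with it, beside 393 and 824 of all 27025 tested probe sets. The lower genes, 1 and 2, were below theirs, beside 682 and 1602 of all tested probe sets. Nek2, a centrosomal kinase gene, had 518 and 656 signal units in macroH2A1 shRNA cells and 669 and 597 in macroH2A2 shRNA cells, against 372 and 425 in Control shRNA cells. All 4 macroH2A shRNA values exceeded both Control shRNA values, but Nek2 was named for its small p, so this adds no support. Nek2 differed by 0.53 (SE 0.17) in macroH2A1 shRNA cells and by 0.65 (SE 0.17) in macroH2A2 shRNA cells, with limma p of 0.0127 and 0.00476 and adjusted p of 0.914 and 0.929.

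In macroH2A2 shRNA cells the other genes under 0.05 were Hmmr, Oip5 and Haus4, which were higher, and Ncapd3, which was lower. Oip5, encoding a factor that loads the centromeric histone, had 117 and 120.2 signal units, against 62.7 and 89.4 in Control shRNA cells (log2 difference 0.56, SE 0.21). Hmmr, encoding a spindle protein, had 820.4 and 729, against 529.9 and 645 (0.39, SE 0.16), and Haus4, of the augmin complex, 643 and 600.3, against 461.5 and 513 (0.34, SE 0.14). Ncapd3, encoding a condensin II subunit, had 525 and 401, against 678 and 635 (-0.50, SE 0.17). For each of the 4 the values of the 2 lines did not overlap. They were named for a small p, which makes such a gap likely, so it adds no support. The share of all tested probe sets without overlap was not counted for this comparison. Medians over the 138 genes were -0.03 for macroH2A1 shRNA minus Control shRNA, 0.0032 for macroH2A2 shRNA minus Control shRNA and 0.03 for macroH2A2 shRNA minus macroH2A1 shRNA. As among the 33 genes, 73 of the 138 were higher in set 1 and lower in set 2 when macroH2A2 shRNA was set against Control shRNA (background 18.6%), and 108 were higher on replicate 1 than on replicate 2 of that line (background 53.7%). Between replicates limma called 8 of the 138, beside 9.85% of all tested probe sets, higher for Lin52 (1.10), Cenpb (0.68), Rad21 (0.53), Pds5a (0.51), Ncapg2 (0.47), Cit (0.46) and Kif22 (0.42) and lower for Chmp4b (-0.31).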

How the data were processed

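The 6 arrays were analysed from linear signal intensities that the authors deposited for every probe set. They came from MAS5, as the submitters' processing notes state without a version. Each array had a 2% trimmed mean of 150.0, which shows a scaling of all arrays to 1 target that removes any difference in total signal between the lines. Gene names came from the platform annotation, and 34945 of 45037 non-control probe sets carried 1 symbol.

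Signals were used as log2(signal + 16), so differences of dim genes are understated. Probe sets with a mean signal of at least 10.4, the 40th percentile, were tested, 27025 in all. One limma fit (limma 3.58.1 under R 4.3.3, lmFit, then eBayes with trended variance) held all arrays, with 3 group means, 3 residual and 4.90 prior degrees of freedom, and p-values were two-sided and adjusted over all tested probe sets by Benjamini-Hochberg. A second fit added the replicate number as a block (2 residual and 9.09 prior degrees of freedom), and replicate 1 was set against replicate 2 with the line as a term. The labels tie no replicate number to a batch. The replicate 1 minus replicate 2 differences over all tested probe sets correlated between macroH2A2 shRNA and macroH2A1 shRNA (0.415), macroH2A1 shRNA and Control shRNA (0.576), and macroH2A2 shRNA and Control shRNA (0.372), so values within each set are given. The limma procedure was also run on simulated data, with planted changes larger than any difference of the G2/M genes. That run does not show how well differences of their size would be found.

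All 34 genes are accounted for. Per-array values were given for core genes of each role, for genes past the threshold and for the 4 with the smallest p per comparison, and from the 9 further gene lists up to 4 genes with the smallest p. The genes and lists were chosen with earlier results of these data known. The promoter words were chosen after the arrays had been read and before their matches were counted. Alternatives were the replicate block, another pseudocount, other filters, quantile normalization, centring on array medians, the mean over probe sets of a gene and leaving out each array. No set tests were run.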

Additional observations from a re-analysis of the deposited data

Results flagged for a closer look

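The replicate 1 minus replicate 2 difference of the G2/M and mitosis genes was not alike in the 2 knockdown lines. As deposited, the median log2 difference was 0.34 in macroH2A2 shRNA cells. It was near 0 in the other lines, at -0.07 in macroH2A1 shRNA cells and 0.02 in Control shRNA cells. After quantile normalization the medians were 0.37, -0.03 and 0.08. With arrays centred on their medians they were 0.20, -0.29 and -0.36, so the other lines were then not near 0. The medians over all tested probe sets were then -0.11, -0.17 and -0.27 in the same order. Gene by gene, in the values as deposited, the median of the difference between the 2 knockdown lines was 0.41, and 21 of 33 genes had opposite signs. All 33 were higher on replicate 1 in macroH2A2 shRNA cells, so these 21 are the genes lower on replicate 1 in macroH2A1 shRNA cells. Of all tested probe sets 56.2% were higher on replicate 1 in macroH2A1 shRNA cells. Each line has 1 pair of arrays, so this difference was not tested. Groups held 2 arrays each, too few to look for an array that stands apart within a group.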

How the results depend on the processing

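Each comparison of lines had 0 of 33 genes called under all 21 alternatives, with lowest limma adjusted p values of 0.209 for macroH2A1 shRNA minus Control shRNA, 0.123 for macroH2A2 shRNA minus Control shRNA and 0.0721 for macroH2A2 shRNA minus macroH2A1 shRNA, and the replicate block changed no call of a G2/M gene. Without the block 0% of all tested probe sets were called and Macroh2a1 itself had an adjusted p of 0.123, so these counts say nothing about stability. The median over the 33 genes for macroH2A1 shRNA minus Control shRNA, -0.05, was 0.019 with arrays centred on their medians, with or without the replicate block. Leaving out 1 array at a time, with or without the block, it ranged from -0.17 (without macroH2A1 shRNA replicate 2) to 0.079 (without macroH2A1 shRNA replicate 1), and with the block it was -0.13 without Control shRNA replicate 1 and 0.05 without Control shRNA replicate 2. For macroH2A2 shRNA minus Control shRNA the same range was -0.18 (without macroH2A2 shRNA replicate 1) to 0.21 (without macroH2A2 shRNA replicate 2), and for macroH2A2 shRNA minus macroH2A1 shRNA -0.14 to 0.26, for the same arrays left out. Between replicates 3 genes were called, and 1 with no filter, with the 60th percentile filter, with centred arrays and with the mean over the probe sets of a gene, when that gene was Cenpa and not Cenpe. The median between replicates was -0.18 with centred arrays, against 0.07, and 0.016 to 0.16 with 1 array left out. The cause was not tested, apart from the number of probe sets tested, which the filter settings alter by construction. With 2 arrays a line, and an interval past 2-fold for Cenpe, small differences of single genes were not detectable.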
